A study of Mus musculus with 12 samples.

Results

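Nucleosome calls were examined at 10 mouse genes of the acrosome, out of the 21887 protein-coding genes on the 21 chromosomes analysed. The members are Zpbp, Zpbp2, Spata16, Dpy19l2, Spaca1, Zp3r, Acr, Acrbp, Gopc and Pick1. They were selected for their function, and were chosen by a procedure that had already seen call counts of the same lists, those of Zpbp and Spata16 in particular. Stage differences at the members are therefore given as a description, with no test. A member's calls are those whose midpoint lies in its RefSeq gene body (GRCm38/mm10) or within 1000 bp on either side, which is called its window below.

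Cells came from testes of adult male SV129 mice aged 8 to 12 weeks, with 11 mice pooled per collection and fractions of at least 85% purity by microscopy, and no genetic or drug treatment is named in the labels. M denotes a fraction that sample titles call meiotic spermatid while the protocol text says only meiotic, so its exact stage is uncertain. RS denotes round spermatids, the haploid cells in which the acrosome is built. Both were digested with 0.5, 1 or 2 U of micrococcal nuclease (MNase), which cuts the linker between nucleosomes, and RS digestions held 2 times as many cells as those of M. The 12 samples form 6 groups of 2, and the authors made 1 list of 140 bp nucleosome calls from both samples of each group, so no value below has a replicate error. From 0.5 to 2 U the lists of M comprised 42178, 60077 and 65614 calls, and the lists of RS 179133, 41655 and 27101. Counts are therefore given per 100000 calls of their list as well. Intervals are 95% intervals for counting error only, and they do not allow for the overlap of neighbouring calls. The lists hold no expression values, so the stage labels were not checked against marker genes.

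The acrosome is a secretory granule that caps the sperm nucleus and carries the enzymes and binding proteins used at the egg coat. It forms in round spermatids, where vesicles from the Golgi fuse on the nuclear envelope and spread over it. Loss of several of the genes described here gives sperm with round heads and no acrosome, the condition called globozoospermia. In the same cells nucleosomes still package the genome, and they are later replaced by protamines.

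All 10 windows together, 894 kb, held 13 calls in M and 45 in RS. In M these were 1, 6 and 6 calls at 0.5, 1 and 2 U, or 2.37 per 100000 calls (0.0600 to 13.2), 9.99 (3.67 to 21.7) and 9.14 (3.36 to 19.9). In RS there were 32, 8 and 5 calls, or 17.9 per 100000 (12.2 to 25.2), 19.2 (8.29 to 37.8) and 18.4 (5.99 to 43.1). Each RS level was above each M level, while the intervals overlapped at every amount. As a log2 ratio, RS over M, this gave 2.35 (-0.01 to 4.71) at 0.5 U, 0.92 (-0.56 to 2.39) at 1 U and 1.03 (-0.60 to 2.67) at 2 U, with a mean of 1.43 (0.36 to 2.51). The same mean over all protein-coding genes was 0.18 (0.16 to 0.20). Without Zpbp or without Spata16 the ratio at 1 U was -0.0022, and without both genes the mean over amounts was 0.22 (-1.89 to 2.34).

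**Figure D1:**
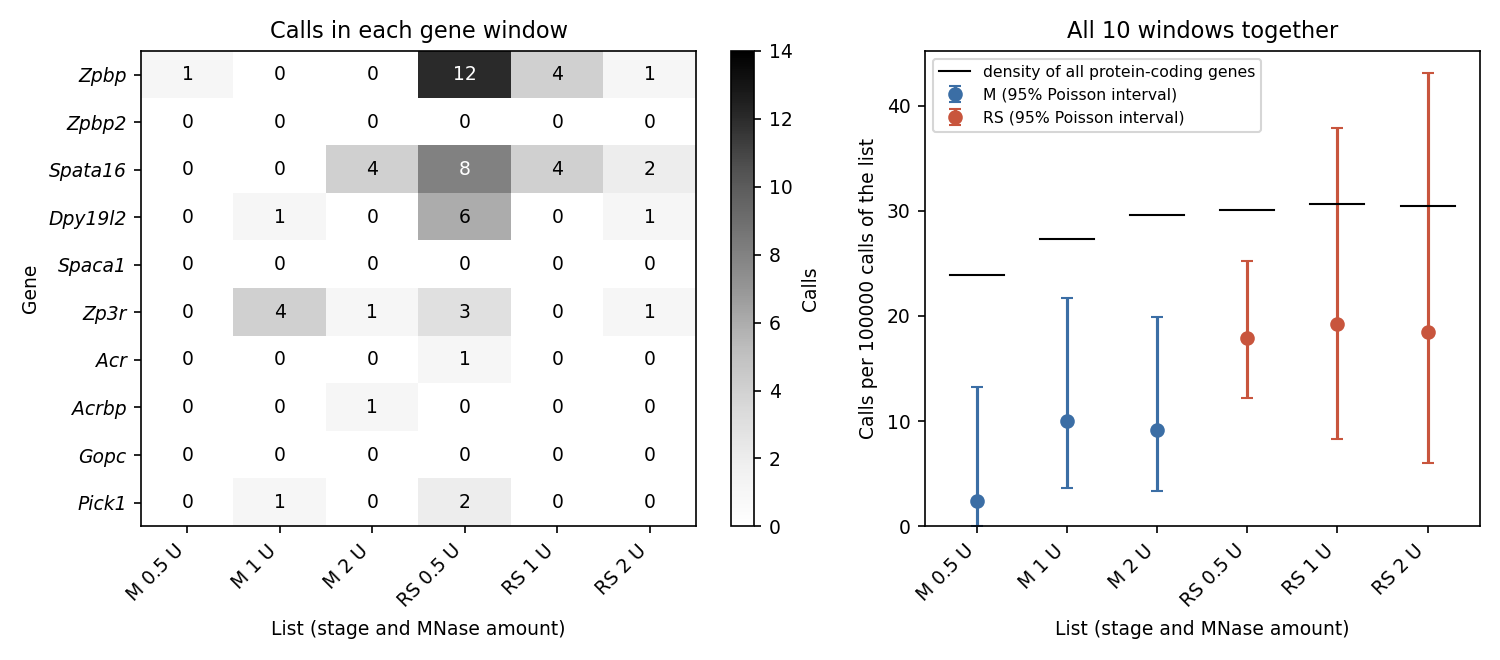
Left, calls in each gene window (rows) in each list (columns), with the number of calls printed in the cell and shaded by it. Right, calls of all 10 windows per 100000 calls of the list with 95% Poisson intervals, where the black lines show the level at the mean density of protein-coding gene windows of that list. Most calls lie in Zpbp and Spata16, and the 6 points lie below their black lines.

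Seen against the rest of the genome, the windows were poor in calls in both fractions. Per kb, the members had 0.0990, 0.366 and 0.309 times the density of all protein-coding gene windows in M, from 0.5 to 2 U. The 3 intervals of M lay below 1, with upper ends of 0.552, 0.797 and 0.672. In RS the values were 0.594 (0.406 to 0.839), 0.628 (0.271 to 1.24) and 0.606 (0.197 to 1.42). Each RS value was thus also below 1, although the interval included 1 at 1 and 2 U.

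Single members did not follow 1 pattern. Of the 10 members, 7 had at least 1 call, against 63.9% of all protein-coding genes. The mean calls per 100000 over the 3 amounts were higher in RS for 4 members (38.4% of all protein-coding genes) and higher in M for 3 (25.5%). These shares are near the background, and the median difference between the stages was 0 both for the members and for all protein-coding genes. By amount, 6 members were higher in RS at 0.5 U (background 39.7%), 2 at 1 U (17.3%) and 4 at 2 U (13.2%). The 4 at 2 U were Zpbp, Dpy19l2 and Zp3r, with 1 call each in RS, and Spata16, with 2 in RS and 4 in M. This background is not matched for length, and the median window was 37.1 kb for the members and 19.2 kb for all protein-coding genes. Zpbp and Spata16 were higher in RS at all 3 amounts, as were 2.81% of all protein-coding genes.

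The long members held calls in proportion to their length over all lists, but not in each fraction. The 3 members with gene bodies of 100 kb or more, Spata16, Zpbp and Dpy19l2, made up 75.6% of the summed window length and held 44 of the 58 calls (75.9%). They held 6 of the 13 calls in M (46.2%) and 38 of the 45 in RS (84.4%), so the other 7 members had 7 calls in each fraction. Counts of Zpbp and Spata16 had been seen when the members were chosen, so this split by stage is not a separate result on length. All 3 were higher in RS by the mean over amounts, against 55% of the 2429 protein-coding genes of that length. Of those long genes 13% were higher in RS at all 3 amounts, compared with the 2 members Zpbp and Spata16.

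Zpbp and Zpbp2 encode zona pellucida binding proteins, which lie in the acrosomal matrix and are needed for a normal sperm head. Zpbp (gene ID 53604, chromosome 11 from 11279624 to 11464223, minus strand, 184.6 kb) had 1, 0 and 0 calls in M against 12, 4 and 1 in RS. Per 100000 calls, M stood at 2.37, 0 and 0, and RS at 6.70, 9.60 and 3.69, so no value of M reached the lowest of RS. At 1 U the interval of RS, 2.62 to 24.6, overlapped that of M, 0 to 6.14. The mean log2 ratio was 2.51 (0.27 to 4.75), and it was 2.21 (-0.05 to 4.47) when calls with midpoints within 73 bp were merged to 1 position. At the density of all protein-coding windows Zpbp would hold 9.58 calls in M, where 1 was seen, and 15.6 in RS, where 17 were seen. Its RS count was thus close to what that pooled density gives for its window, and its M count was below the value for M. Genes of the same length were not compared here. Zpbp2 (gene ID 69376, chromosome 11 from 98551097 to 98558665, 7.57 kb) had 0 calls in the 6 lists, which at the density of protein-coding windows would give 0.491 in M and 0.801 in RS.

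Spata16 encodes a Golgi protein of spermatids, and its loss blocks acrosome formation and male fertility. It is the longest member (gene ID 70862, chromosome 3 from 26637620 to 26983249, plus strand, 345.6 kb) and had 0, 0 and 4 calls in M against 8, 4 and 2 in RS. Per 100000 calls, M stood at 0, 0 and 6.10, and RS at 4.47, 9.60 and 7.38, so at 2 U the fractions were close (6.10, 1.66 to 15.6, and 7.38, 0.894 to 26.7). At 0.5 U the interval of RS, 1.93 to 8.80, overlapped that of M, 0 to 8.75, so the 8 calls against 0 do not fix a direction. At 1 U the intervals, 2.62 to 24.6 and 0 to 6.14, overlapped too. The mean log2 ratio of 2.04 (-0.06 to 4.14) had an interval that includes 0. Both fractions were below the density of protein-coding windows, which would give 17.9 calls for the 4 in M and 29.1 for the 14 in RS.

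Dpy19l2 and Spaca1 act where the acrosome meets the nucleus. Dpy19l2 is a protein of the inner nuclear membrane that anchors the acrosome to the nucleus, and Spaca1 is a membrane protein of the acrosome. Dpy19l2 (gene ID 320752, chromosome 9 from 24557047 to 24696457, minus strand, 139.4 kb) had 0, 1 and 0 calls in M against 6, 0 and 1 in RS. Its level at 1 U, 1.66 per 100000 in M and 0 in RS, went against the other amounts, which had 3.35 and 3.69 in RS and 0 in M. The mean log2 ratio was 1.14 (-1.44 to 3.72). Spaca1 (gene ID 67652, chromosome 4 from 34024872 to 34050067, minus strand, 25.2 kb) had 0 calls in the 6 lists, where 1.40 in M and 2.28 in RS would match the density of protein-coding windows.

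Zp3r, Acr and Acrbp also belong to the contents of the granule. Zp3r is a zona pellucida 3 receptor of the matrix, related to complement regulators (gene ID 22789, chromosome 1 from 130547110 to 130629634, minus strand, 82.5 kb). It had 0, 4 and 1 calls in M against 3, 0 and 1 in RS, with means of 2.73 per 100000 in M and 1.79 in RS. Per 100000 calls, M stood at 0, 6.66 and 1.52, and RS at 1.67, 0 and 3.69, so RS was higher at 0.5 and 2 U and M at 1 U. Its mean log2 ratio was -0.22 (-2.49 to 2.06), and 3 of the 4 calls in M at 1 U were steps of 1 position. Acr, the gene of the protease acrosin (gene ID 11434, chromosome 15 from 89568326 to 89578853, 10.5 kb), had 1 call, in RS at 0.5 U. Acrbp, which binds the precursor of acrosin (gene ID 54137, chromosome 6 from 125049927 to 125063265, plus strand, 13.3 kb), had 1 call, in M at 2 U. With 1 call each, no stage difference can be read at either gene.

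Gopc and Pick1 are PDZ domain proteins that work together in the traffic of vesicles from the Golgi to the acrosome. Gopc (gene ID 94221, chromosome 10 from 52337024 to 52382124, minus strand, 45.1 kb) had 0 calls in the 6 lists, where 2.42 in M and 3.94 in RS would match protein-coding density. Pick1 (gene ID 18693, chromosome 15 from 79229140 to 79249466, plus strand, 20.3 kb) had 0, 1 and 0 calls in M against 2, 0 and 0 in RS. All 3 calls lay beyond the 3′ end of the gene body, and they were the only member calls outside a gene body. For the 3 members without calls, the interval of a count of 0 reaches 3.69 calls per list. This is 2.06 per 100000 in the longest list (RS at 0.5 U) and 13.6 in the shortest (RS at 2 U).

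The position of each call was then compared along the genes. In Zpbp the 17 calls of RS ran from 11.5 to 157 kb from the 5′ end, with 10 before the midpoint of the gene body and 7 after it, and the single call of M lay at 96.7 kb. The 4 calls of RS at 1 U lay in the first 20.5 kb of Zpbp, a stretch where RS at 0.5 U and 2 U had none. In Spata16, 11 of the 14 calls of RS lay before the midpoint (median 93.3 kb), and 3 of the 4 calls of M lay after it (median 205 kb). In Dpy19l2 the calls of RS lay between 5.58 and 82.0 kb, and that of M at 16.6 kb. Overlapping calls were counted singly here, and at Zpbp more of them lay after the midpoint than before it. After merging, the 17 calls of RS in Zpbp formed 12 positions. The 14 of RS in Spata16 formed 10, and the 4 of M there formed 3.

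**Figure D2:**
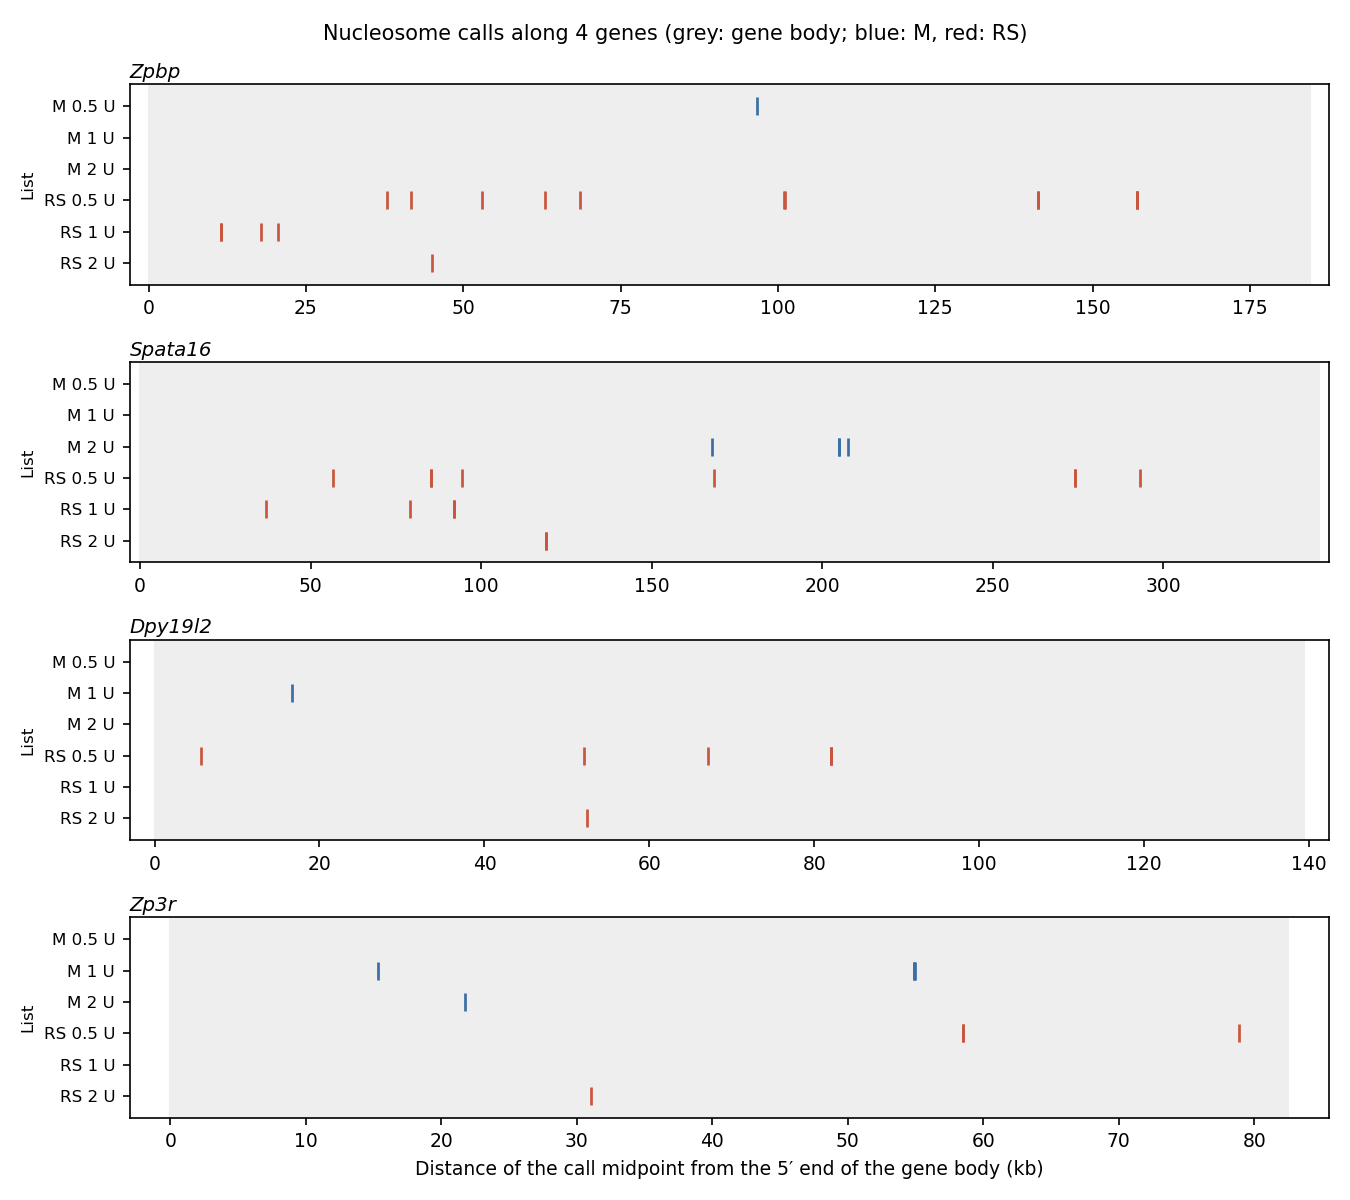
Call midpoints (ticks) along the gene bodies (grey) of Zpbp, Spata16, Dpy19l2 and Zp3r in kb from the 5′ end, 1 row per list, with M in blue and RS in red. Calls spread over the gene bodies, ticks of different lists do not coincide, and none lies within 1 kb of a 5′ end.

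No position recurred. Of the 58 calls, 0 had a call of another list within 73 bp, and the smallest distance to another list was 347 bp, in Dpy19l2 between RS at 0.5 U and RS at 2 U. Over the 21 chromosomes outside dense bins (10 kb stretches in which some list has over 20 calls, none of which holds a member call), 4.51% of the calls of RS at 0.5 U and 8.62% to 11.7% of those of the other lists had such a neighbour. The 58 calls formed 42 positions after merging, 10 in M and 32 in RS, of which 29 were a single call, 10 were pairs and 3 were triplets with steps of 20 to 60 bp. At Zpbp, merging left 1 position in M and 8, 3 and 1 in RS. At Spata16 it left 3 in M, all at 2 U, and 6, 3 and 1 in RS.

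The evidence behind single calls was at the lower limit of the lists. The largest p-values of each of the authors' lists match Poisson tails that begin at 6 reads, and a read count was derived for each call from its p-value on that basis. Of the 58 calls, 46 (79.3%, exact binomial interval 66.6 to 88.8) stood at 6 reads, 8 at 7 and 4 at 8, and none was higher. In protein-coding windows outside dense bins 73.2% to 79.9% of the calls stood at 6 reads. A triplet of RS at 0.5 U in Zpbp, at chromosome 11 from 11307092 to 11307291, held 2 of the calls with 8 reads. The others were a call of M at 2 U in Spata16, at chromosome 3 from 26842557 to 26842696, and 1 of RS at 0.5 U in Dpy19l2, at chromosome 9 from 24629277 to 24629416. With calls above 6 reads alone, 1 in M and 11 in RS, the mean log2 ratio was 2.07 (-0.21 to 4.35).

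Sequence just before a RefSeq transcription start is shown for 3 members: Spata16, which held as many calls as Zpbp, and Spaca1 and Acrbp, which hold a motif named below. No call of any list touched it. RefSeq (GRCm38.p6) sequences were matched for 9 members (not Acr), as 11 starts, and the 250 bases before the start overlapped 0 calls in each of them. Of all 32851 such sequences 5.46% were overlapped by a call in at least 1 list, so 0 of 11 is near what the background gives. Spermatid genes are often switched on by the activator CREM, which binds the cyclic AMP response element TGACGTCA or the shorter TGACG. On either strand, TGACG (which the full element contains) was found at 4 of the 9 members, Spaca1, Acrbp, Gopc and Zpbp2, against 19.8% of the 27025 genes in the table. The full element was found at 0 members, and at 1.77% of genes. Zpbp and Spata16, which held most calls, had neither in this stretch, which says nothing of a factor's binding elsewhere. The TGACG sites of Spaca1 begin at -69 and -59 and that of Acrbp at -18 from the start, and they are in capitals below, each sequence 5′ to 3′ on the strand of its gene. The listed start of Spata16 lies just inside the gene body, so the last bases of its sequence belong to the annotated gene. That of Zpbp lies well inside the gene body, and its sequence is not shown for that reason.
Spata16, chr3:26637381-26637630, plus strand: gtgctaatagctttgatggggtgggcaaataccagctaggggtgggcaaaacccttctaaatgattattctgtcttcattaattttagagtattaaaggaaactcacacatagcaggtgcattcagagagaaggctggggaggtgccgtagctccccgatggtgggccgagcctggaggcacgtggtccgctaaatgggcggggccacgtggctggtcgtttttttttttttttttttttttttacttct
Spaca1, chr4:34050066-34050315, minus strand: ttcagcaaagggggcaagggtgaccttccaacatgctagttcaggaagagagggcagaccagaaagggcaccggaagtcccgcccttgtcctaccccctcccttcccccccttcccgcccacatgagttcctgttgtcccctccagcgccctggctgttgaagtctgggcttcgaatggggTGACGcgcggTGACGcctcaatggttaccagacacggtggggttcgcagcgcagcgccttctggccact
Acrbp, chr6:125049677-125049926, plus strand: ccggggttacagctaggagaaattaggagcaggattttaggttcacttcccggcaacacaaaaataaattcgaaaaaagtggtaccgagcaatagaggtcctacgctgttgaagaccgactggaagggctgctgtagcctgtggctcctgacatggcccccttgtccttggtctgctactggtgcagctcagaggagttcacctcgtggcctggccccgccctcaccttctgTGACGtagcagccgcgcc

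The surroundings of the genes gave another measure, which the choice of members had not used. Regions of the same length on both sides of each window, 1788 kb in all, held 19, 26 and 27 calls in the lists of M and 111, 22 and 6 in those of RS. Their log2 ratio, RS over M, was 0.43, 0.29 and -0.81 from 0.5 to 2 U, with a mean of -0.03 (-0.57 to 0.52). Within 1 Mb on each side the mean was 0.23 (0.09 to 0.37), close to that of all protein-coding genes. The interval of the windows themselves (0.36 to 2.51) overlapped both, and the difference between the genes and their surroundings was not tested.

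Single genes were then set beside their own surroundings. Around Zpbp, 1 Mb on each side held 0.0344 calls per 100000 calls and per kb in M and 0.0269 in RS, while the window held 0.00424 and 0.0357. Around Spata16 the surroundings had 0.0303 in M and 0.0382 in RS, against 0.00585 and 0.0206 in the window. For Dpy19l2 these were 0.0340 and 0.0341 outside and 0.00392 and 0.0166 inside. In these 3 genes the density of M inside the window lay below that of the surroundings, on 6 calls in all. Zp3r had 0.0304 and 0.0392 outside and 0.0323 and 0.0212 inside. With 1 Mb as the outside, the stage with the higher density was RS both inside and outside at Spata16, and it differed at Zpbp and Zp3r. At Dpy19l2 RS was higher inside, on 7 calls against 1, while the densities within 1 Mb were nearly equal. The regions of the same length on both sides gave another picture at Spata16 and Dpy19l2. There M was higher at Zpbp (0.0293, RS 0.0238) and Spata16 (0.0286, RS 0.0236). RS was higher at Dpy19l2 (0.0353, M 0.0147) and Zp3r (0.0300, M 0.0107).

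**Figure D3:**
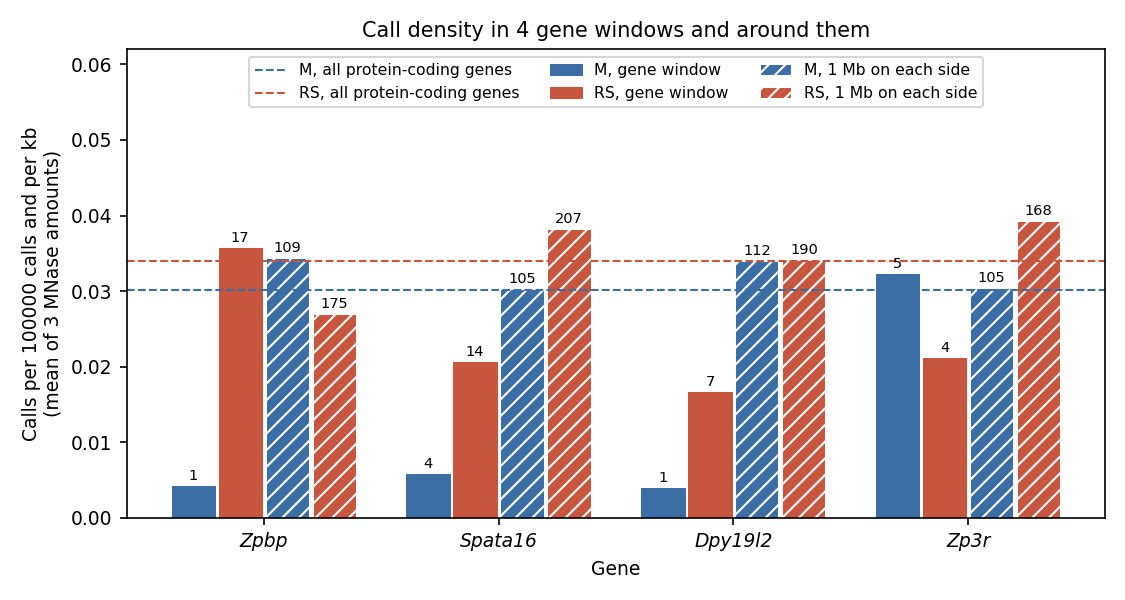
Calls per 100000 calls and per kb, as the mean of the 3 MNase amounts, in the windows of 4 genes (plain bars) and within 1 Mb on each side (hatched bars), with the number of calls above each bar. Dashed lines give the mean density of all protein-coding windows, 0.0301 in M and 0.0340 in RS. The M bars of Zpbp, Spata16 and Dpy19l2 rest on 1, 4 and 1 calls.

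Other genes of the acrosome were counted in the same way, from a list of 48 that were all found in the table. The list was drawn up with earlier results of these data known. They held 50 calls in M and 74 in RS, and 16 (33.3%) were higher in RS, 17 were higher in M and 15 had no call. Among all protein-coding genes 38.4% were higher in RS and 25.5% in M. Their median window was 18.1 kb, against 37.1 kb for the 10 members and 19.2 kb for all protein-coding genes. Their log2 ratio, RS over M, was 1.79 (0.23 to 3.35) at 0.5 U, -0.44 (-1.39 to 0.50) at 1 U and 0.24 (-0.82 to 1.31) at 2 U. The mean of 0.53 (-0.17 to 1.23) had an interval that includes 0 and overlaps that of the members. M at 0.5 U was again low, with 3 calls or 0.182 times the protein-coding density (0.0375 to 0.531). M stood at 0.971 (0.635 to 1.42) at 1 U and 0.661 (0.409 to 1.011) at 2 U. Both intervals included 1, unlike those of the members in M. In RS the values were 0.580, 0.624 and 0.742 from 0.5 to 2 U, and the interval included 1 at 1 and 2 U.

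Of that list, 6 genes had at least 5 calls. Atg7, an autophagy enzyme needed for acrosome formation, had 0, 4 and 6 calls in M against 5, 5 and 5 in RS. Cylc2, a cylicin of the perinuclear theca beneath the acrosome, had 0, 0 and 2 in M and 4, 2 and 0 in RS. Spaca6, needed for fusion with the egg, had 0, 3 and 2 in M and 1, 2 and 0 in RS. Vps54, a tethering protein of vesicles that return to the Golgi, had 1, 1 and 2 in M and 3, 0 and 0 in RS. Agfg1, which acts in the fusion of proacrosomal vesicles, had 0 calls in M against 2, 0 and 3 in RS. Fam170b, an acrosomal protein, had 0 calls in M against 4, 0 and 1 in RS. Per 100000 calls, Atg7 was higher in RS at all 3 amounts, and it was the only gene of the 48 that was. Of all protein-coding genes 2.81% were. Its window of 219 kb is longer than that of Zpbp.

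Genes of the sperm tail, which is built in the same cells, were set beside the members. The 32 genes of this list held 60 calls in M and 287 in RS, and 20 of them (62.5%) were higher in RS. Among all protein-coding genes this share was 38.4%, and among those of 100 kb or more it was 55%. The median window of the list was 37.8 kb, against 19.2 kb for all protein-coding genes. Their mean log2 ratio was 1.95 (1.48 to 2.41), with an interval that overlaps that of the members. M was low in this list too, at 0.243, 0.524 and 0.378 times the protein-coding density from 0.5 to 2 U. In RS the values were 1.12, 1.03 and 1.78. Dnah8, a dynein heavy chain, held 16 and 126 of these calls, and without it the mean was 1.41 (0.85 to 1.98). Without Dnah8 the RS values fell to 0.735, 0.474 and 1.02 times the protein-coding density, and those of M to 0.199, 0.430 and 0.293. By amount, the ratio without Dnah8 was 2.10 (0.96 to 3.24) at 0.5 U, 0.31 (-0.59 to 1.21) at 1 U and 1.82 (0.94 to 2.70) at 2 U. Spag16, of the central pair of the axoneme, had 13 and 54 calls, and Spag17, also of the central pair, had 6 and 19. At all 3 amounts RS was higher at Dnah8 and Spag17, 2 genes of this list, and at 2.81% of all protein-coding genes. This list was drawn up with earlier results of these data known, so its values are a description. In that sense a higher mean ratio in RS was also seen outside the acrosome genes.

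**Figure D4:**
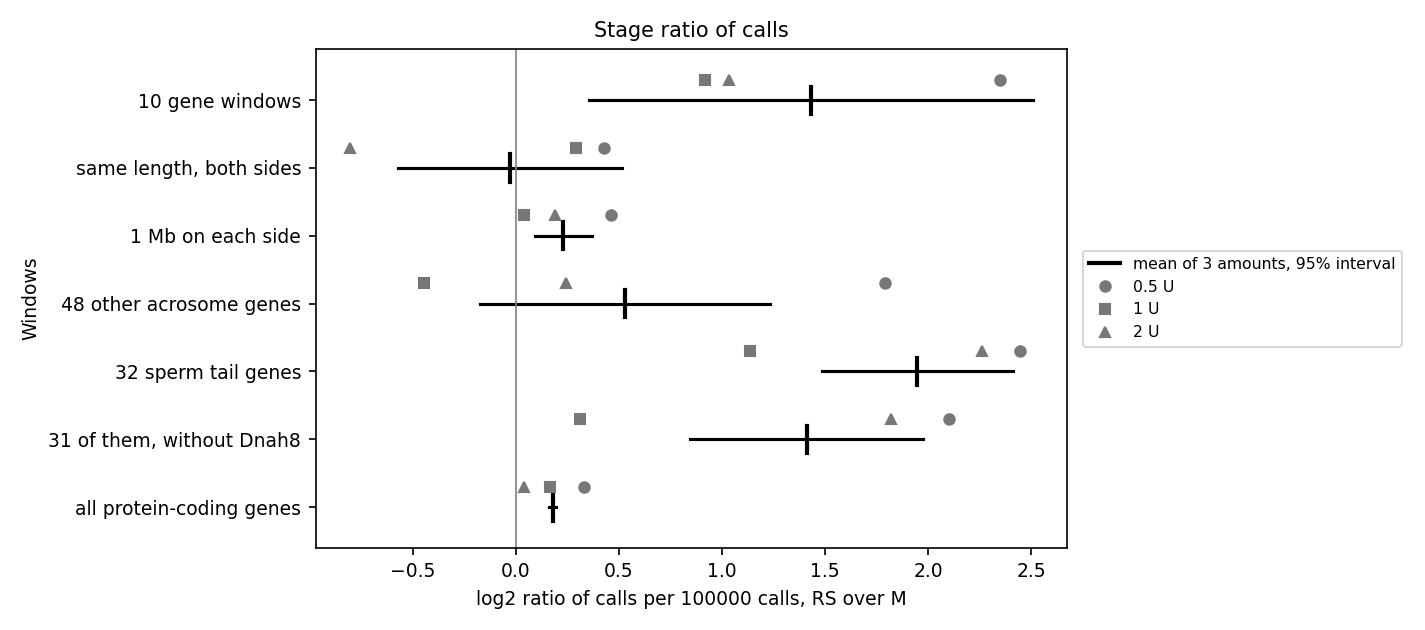
Log2 ratio of calls per 100000 calls, RS over M, for the 10 gene windows, their surroundings, 2 other gene lists and all protein-coding genes. Grey symbols are the 3 MNase amounts, and black lines give the mean with its 95% interval for counting error. The interval of the 10 windows is the widest and overlaps those of their surroundings, the other acrosome genes and the sperm tail genes. Its lower end (0.36) only just meets the upper end for 1 Mb on each side (0.37). It does not overlap the interval of all protein-coding genes (0.16 to 0.20). With calls of the windows merged within 73 bp the mean was 1.296 (0.145 to 2.447), which overlaps that interval. Call counts of these lists had been seen when the members were chosen, so the comparison is a description and not a test.

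Since RS was digested with more cells, the fractions were also compared at equal MNase per cell. RS at 1 U against M at 0.5 U gave 8 and 1 calls in the 10 windows, with a log2 ratio of 2.52 (0.02 to 5.02). RS at 2 U against M at 1 U gave 5 and 6 calls, with 0.91 (-0.73 to 2.55). Within M the level of the windows was 2.37 per 100000 calls at 0.5 U and 9.14 at 2 U, with overlapping intervals, and within RS it lay between 17.9 and 19.2. Whether extent of digestion, mapping or the number of sequenced reads has a part in the low level of M was not tested.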

How the data were processed

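MNase-seq lists of 6 groups were analysed, each made by the authors from 2 samples. Per the submitters' processing notes the build is GRCm38/mm10 and STAR 2.5.2a was used. Which program called nucleosomes, and at what threshold, is not given in the sources used here. The deposited lists give, for each 140 bp call, the authors' p-value and no read count or library total.

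Midpoints (start + 70) were counted in RefSeq gene bodies with 1000 bp on each side, per 100000 calls and per kb. Log2 ratios had 0.5 added to each count and normal intervals from the counts, and single counts have exact Poisson intervals. Implied reads came from matching the 8 largest p-values of a list to Poisson tails, whose matched means, a derived measure of coverage, from 0.5 to 2 U were 0.434, 0.484 and 0.507 reads for M, then 0.696, 0.472 and 0.409 reads for RS. Dense bins, where left out, are 10 kb stretches in which some list has over 20 calls. No test was made, as the lists pool the samples. Alternatives covered the flank, overlap rule, read minimum, merging, denominator, dense bins, pseudocount, MNase amount and member choice. Steps were tested on simulated data. The members and the gene lists were chosen with earlier results of these data known. Named genes were the members, other acrosome genes with at least 5 calls, the 3 sperm tail genes with most calls, and the 3 genes nearest in counts to each of the members with most calls. Python 3.11.15, numpy 2.4.6, pandas 2.3.3, scipy 1.17.1 and matplotlib 3.10.9 were used.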

Additional observations from a re-analysis of the deposited data

How the results depend on the processing

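Alternatives changed the flank, the midpoint rule, the read minimum, merging, the denominator, the dense bins, the pseudocount, the amounts or the members. Over the 21 that could change it (leaving out a member with 0 calls cannot), the mean log2 ratio of the 10 windows ran from 0.22 to 2.07, and its interval lay above 0 in 15. The interval included 0 in the other 6, at 2.07 (-0.21 to 4.35) with calls above 6 reads, 0.97 (-0.13 to 2.08) without 0.5 U, 1.34 (-0.24 to 2.92) without Zpbp, 1.23 (-0.02 to 2.49) without Spata16, 1.11 (-0.05 to 2.26) for merged positions over those in protein-coding windows, and 0.22 (-1.89 to 2.34) without Zpbp and Spata16. The last 2 were chosen after the data were seen. The ratio at 0.5 U ran from 1.45 to 3.27 and that at 2 U from 0.75 to 1.76. At 1 U it was -0.0022 without Zpbp, -0.0022 without Spata16, -3.17 without both (0 calls in RS and 6 in M) and 2.83 (-1.55 to 7.21) with calls above 6 reads. The number of members higher in RS ran from 2, without Zpbp and Spata16, to 6, without 1 U and also with a flank of 5000 bp. For single genes 13 alternatives could change the mean ratio, which ran from 1.62 to 3.28 at Zpbp, with the interval above 0 in 7, and from 0.18 to 3.33 at Spata16, with the interval above 0 in 1. No paired analysis was possible because each list pools both samples of a group, and leaving out a replicate could not be run for the same reason. With 58 calls, 46 of them at the minimum of 6 reads, depth limits every statement on a single gene.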

Other observations

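Genes whose counts over the 6 lists were nearest to those of the 2 members with most calls, by Euclidean distance of calls per 100000 calls, were sought among protein-coding genes with at least 10 calls. For Zpbp they were 4930402H24Rik (0, 0 and 1 calls in M, 12, 4 and 1 in RS; distance 2.82), Mprip (0, 0 and 0, then 13, 3 and 1; 3.42) and Ccdc171 (1, 1 and 1, then 14, 3 and 1; 3.48), of 2971 compared. For Spata16 they were Cd247, with the same counts in the 6 lists (distance 0), Tnfaip8 (0, 0 and 3 in M, 6, 4 and 2 in RS; 1.89) and Gm3264 (0, 1 and 4, then 4, 3 and 2; 3.68), of 2972. The counts are small, and nothing is drawn from their likeness.

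The Zpbp window overlaps the lower-coordinate end of Spata48, the Dpy19l2 window contains Cypt4, and the Acrbp window overlaps Ing4. These 3 are protein-coding, and none of the overlaps held a call in any list. Of the 12 RefSeq genes of any type that overlap a member window, 1 held a member call, the long non-coding RNA gene Gm16083 in Zp3r.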
